A study of Mus musculus with 12 samples.

Results

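Nrf2, encoded by Nfe2l2, is held at low levels in unstressed cells by Keap1, which presents it to a ubiquitin ligase for destruction, and electrophiles that modify Keap1 let Nrf2 accumulate. Sqstm1 (p62) is a cargo receptor of autophagy that can bind Keap1 and draw it away from Nrf2. MafG is a small Maf protein, a partner with which Nrf2 binds DNA, and Bach1 is a repressor that also pairs with small Maf proteins and competes for the same elements. Chromatin sites of Nrf2 were examined at the genes of these 5 proteins, in peritoneal macrophages that were either wild type (WT) or of the genotype Nrf2(AY/AY) (AY), homozygous for an allele known to exchange an alanine for a tyrosine in the DNA-binding part of the protein. The members were all peaks within 50 kb on either side of a given approximate start of each gene on the mm9 build, at chromosome 2, 75542700 for Nfe2l2, chromosome 9, 21040000 for Keap1, chromosome 11, 50024300 for Sqstm1 and 120490000 for Mafg, and chromosome 16, 87699000 for Bach1. These windows held 21 of the 8644 peaks of the study, which formed 6 of its 4147 regions once overlapping peaks were merged.

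The macrophages came from mice of 7 to 8 weeks, were drawn into the peritoneum by 4% thioglycolate broth over 4 days, and were exposed in culture to 100 µM diethyl maleate, an electrophile, for 4 hours. All groups shared this exposure, so no untreated cells were compared. Chromatin immunoprecipitation with an anti-Nrf2 antibody gave 3 libraries of each genotype. Whether each library stands for an animal of its own is not stated in the labels. The p-values therefore reflect the variation from library to library and nothing more, and this may be technical. The peak lists give no cell type marker to check the macrophage label against, and read depth is unknown. A missing peak means that the caller's threshold was not reached there, and no more than that. The lists differed in length, from 826 peaks in WT replicate 2 to 2154 in AY replicate 1. WT replicates 1 and 3 had 0 peaks on the Y chromosome or its random sequence, and the other 4 libraries had 15 to 27. The difference in peak number and the differences in rank are therefore also given without these WT libraries. Peak widths, midpoints and the shares over all regions were not recomputed without both of them. The given starts are approximate and no mm9 annotation was used here, so distances below are from the given starts. Whether a peak lies in an exon, an intron or between genes was not determined.

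Nrf2 heterodimers are known to bind the antioxidant response element, whose core is written TGACNNNGC. The sequence under the peaks was not used here, since the peaks are on mm9. The promoters of the 5 genes, all found in RefSeq's GRCm38.p6 table, were searched instead over the 250 bases before the annotated start, on both strands. The core TGACNNNGC was found in 2 of the 5, Nfe2l2 and Mafg, and in 10.2% of all 32851 promoters of the table. The looser TGANNNNGC, which includes every TGACNNNGC, was found in 3 of the 5, Nfe2l2, Keap1 and Mafg, and in 35.2% of all promoters. All 4 matches are shown, since they fall before a gene with no peak (Nfe2l2), a gene with a peak in 1 library (Keap1) and a gene with a peak in every library (Mafg, 2 matches). Each is given on the strand that carries it, with its coordinates on GRCm38.p6 and with the match in capitals.
Nfe2l2, 240 to 232 bases before the start, chr2:75704885-75704913, minus strand: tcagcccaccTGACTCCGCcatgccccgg
Keap1, 61 to 53 bases before the start, chr9:21239375-21239403, plus strand: cgcctccagcTGAACCTGCaccggcggac
Mafg, 222 to 214 bases before the start, chr11:120633751-120633779, plus strand: ctcgccgggtTGACCGTGCtcctgcagag
Mafg, 61 to 53 bases before the start, chr11:120633590-120633618, plus strand: gttccattcaTGAAGCGGCgacgcggctg
The 250 bases before the Sqstm1 and Bach1 starts held no match to either core. TGCTGAC, part of the element of Maf proteins (3.81% of all promoters), and TGACTCA, the AP-1 element (4.46%), were matched in none of the 5, each searched on both strands. Among the other genes of the pathway, 7 of 8 were in the table (not Nfe2). TGACNNNGC was matched before Maff and Mafk, the other small Maf genes, and TGANNNNGC before these and Nfe2l1 and Bach2. Nfe2l3, Cul3 and Rbx1 had neither. TGCTGAC was matched in 1 of these genes, Nfe2l1, and TGACTCA in 0. A gene was counted where any of its promoters in the table matched, while the shares above are over single promoters. Maff and Nfe2l1 had several promoters. Not every Maff promoter held either core, and not every Nfe2l1 promoter held TGCTGAC. These 8 genes have no given mm9 start, so peaks near them were not counted.

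Of the 5 genes, Sqstm1, Mafg and Bach1 each had 1 region with an Nrf2 peak in all 6 libraries. Near Keap1 a peak was seen in 1 library, and near Nfe2l2 there was none in any. The 3 regions in all libraries are 3 of the 6 regions in the windows, and over the whole genome 4.87% of regions were in all libraries. The other 3 were each seen in 1 library only, as were 49.4% of all regions. None of the 6 was in every WT and no AY library (5.21% of all regions), and none was in every AY and no WT library (9.38%). The genes were picked with earlier results of these data known, so these shares describe the windows and were not tested.

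**Figure D1:**
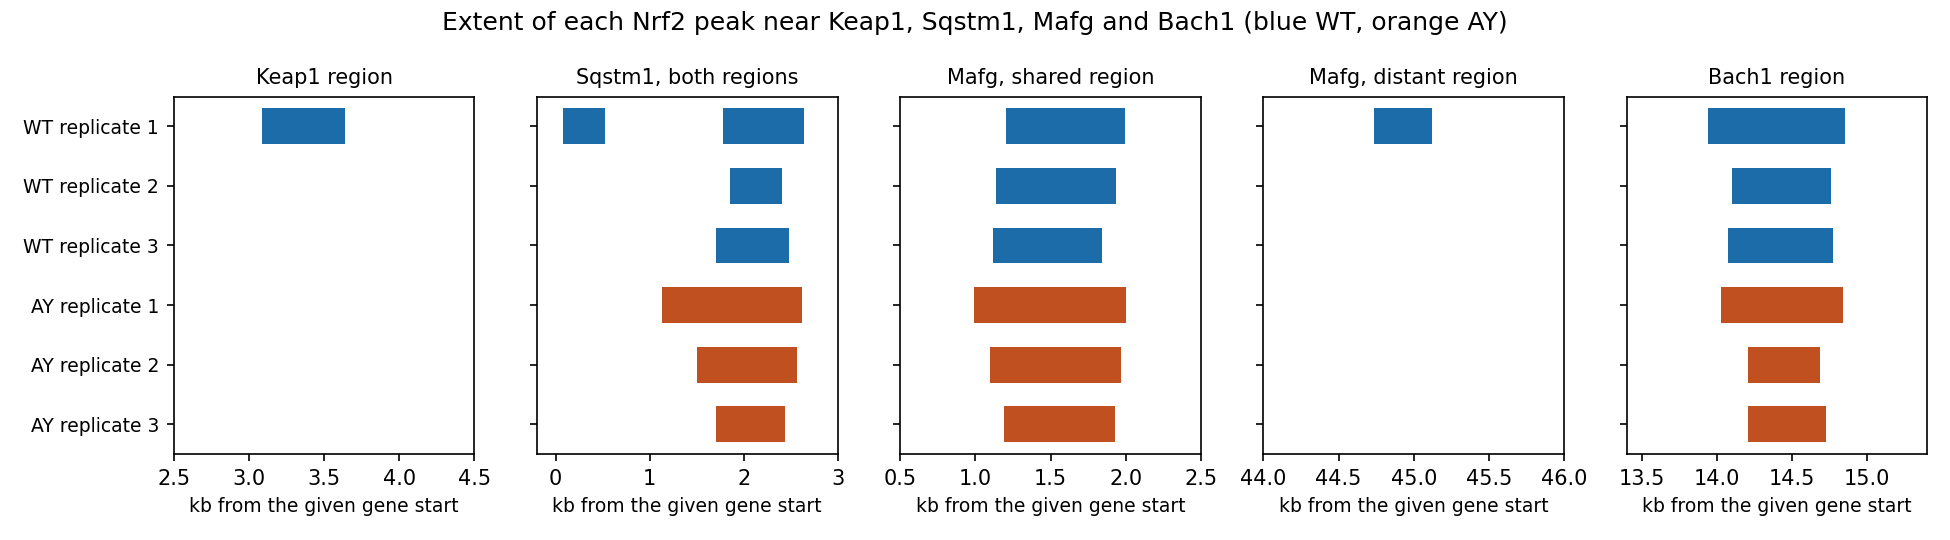
Extent of every Nrf2 peak in the windows of Keap1, Sqstm1, Mafg and Bach1. The x axis is the distance in kb from the given gene start, each row is 1 library (blue WT, orange AY), and the windows differ in scale. The peaks of Sqstm1, Mafg and Bach1 line up in all 6 libraries, and the 3 peaks seen in 1 library are all in WT replicate 1.

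The number of peaks in the 5 windows was the same in every library but 1. WT replicate 1 had 6 peaks, and WT replicates 2 and 3 and the 3 AY libraries had 3 each. The AY mean was lower than the WT mean by 1 peak (exact permutation p = 1, two-sided), and the difference was 0 without WT replicate 1. As only 1 library differed, every assignment of the labels gives a difference of this size. That p was therefore fixed in advance and says nothing about the genotypes. In the other exact permutation tests, with 3 libraries of each genotype, p cannot go below 0.1.

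At Sqstm1 the shared region spanned 50025434 to 50026942 on chromosome 11, 1.13 kb to 2.64 kb from the given start on the side of higher coordinates. All 6 peaks overlapped in 50026160 to 50026709, a core of 550 bp. The scores, given to single peaks by the authors' caller, were 363.79, 233.98 and 276.71 in WT replicates 1, 2 and 3. In AY replicates 1, 2 and 3 they were 1097.85, 822.1 and 409.05. Scores move with depth, so the rank within each list is given beside them. For the WT libraries the peak was number 180 of 1604, 121 of 826 and 142 of 1533. For the AY libraries it was number 35 of 2154, 25 of 1441 and 46 of 1086. Every AY library thus placed the Sqstm1 peak in the top 4.24% of its list, and the WT libraries placed it at 9.26% to 14.6%.

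Lists of different lengths cannot be compared rank by rank, so the 202 regions held by all 6 libraries were ranked among themselves in each library, 1 being the highest score. Sqstm1 took rank 103 in WT replicate 1 and 78 in both other WT libraries, against 25, 17 and 30 for AY replicates 1, 2 and 3. The genotypes did not overlap. Its mean rank was 86.3 ± 14.4 for WT and 24 ± 6.56 for AY (SD, n = 3), a difference of -62.3 places, where exact permutation gave p = 0.1, two-sided, the smallest possible (0.15 adjusted over the 3 genes with such a region). Among the 202 regions, every AY library gave a higher place (a smaller rank number) than every WT library at 28.2%, and a lower place at 32.2%. A shift of this kind was therefore frequent, and 37 of the 202 regions, Sqstm1 included, had a difference at least as much in favour of AY. The median size of the difference over the 202 regions was 40.2 places. WT replicate 2, which has Y peaks as the AY libraries do, also ranked Sqstm1 lower than each AY library. The difference was -52.7 places with WT replicate 2 as the only WT library, among the 229 regions held by all libraries with Y peaks. This rests on 1 library, and whether the difference goes with the Y peaks was not tested.

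The outline of the Sqstm1 peak also varied. It was 859, 550 and 777 bp wide in the WT libraries, by replicate number, and 1485, 1071 and 736 bp wide in the AY libraries. The widths overlapped between genotypes, averaging 729 ± 160 bp for WT and 1097 ± 375 bp for AY (SD, n = 3; two-sided exact permutation p = 0.3). The extra width of AY replicates 1 and 2 lay on the side towards the given start. Their peaks began at 50025434 and 50025799, while AY replicate 3 began at 50026001 and the WT libraries at 50026084, 50026160 and 50026005. The far ends overlapped between genotypes, at 50026709 to 50026942 for WT and 50026736 to 50026918 for AY. The midpoints lay nearer the start in AY, at 1993 ± 103 bp against 2147 ± 60.9 bp in WT, and did not overlap (SD, n = 3; exact permutation p = 0.1; 0.3 adjusted over the 6 comparisons of width and midpoint). A midpoint is the centre of the called peak, so it moves with the edges and is not a finding separate from the extension. The position of highest signal was not used. Of the 202 regions, midpoints were separated in that direction along the chromosome at 7.43% and in the other at 8.42%, and 4 including Sqstm1 had a shift as large as its 154 bp. The AY minus WT difference was -95.6 bp without AY replicate 1 (exact permutation p = 0.2), and the nearest midpoints of the genotypes were 2068.5 bp in AY replicate 3 and 2093 bp in WT replicate 3. The merged Sqstm1 region, 1509 bp, was the widest of the 202, whose median was 899 bp. Without AY replicate 1 it was 1144 bp, at width rank 7 of 207. AY replicates 1 and 2, which had the wide peaks, also had the highest scores here.

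WT replicate 1 held a further, separate peak closer to Sqstm1, from 50024375 to 50024822 and thus 0.075 kb from the given start at its nearest. It had a score of 75.11 and ranked 1141 of 1604. No other library held a peak there. RefSeq places Sqstm1 on the minus strand of GRCm38.p6, where higher coordinates lie before the start. The 250 bases before that start, chr11:50210821-50211070, are printed because this peak is the one nearest to a given start. They are all in lower case, having no match to either core, and whether they lie under the peak was not determined across builds.
Sqstm1: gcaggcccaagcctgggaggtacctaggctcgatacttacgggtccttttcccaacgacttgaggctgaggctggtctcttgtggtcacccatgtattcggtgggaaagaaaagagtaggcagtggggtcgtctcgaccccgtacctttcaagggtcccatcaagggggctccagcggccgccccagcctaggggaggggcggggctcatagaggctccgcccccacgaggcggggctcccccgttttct

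Mafg had the highest score of the 3 shared regions in 4 of 6 libraries, all WT libraries and AY replicate 1. Its region spanned 120490990 to 120491999 on chromosome 11, 0.99 kb to 2.00 kb from the given start, with a core of 642 bp (120491203 to 120491844) common to all peaks. The Mafg start is given only as a round number and may be off by more than this distance, so on which side of the true start the peak lies was not determined. WT replicates 1, 2 and 3 scored 585.86, 363.51 and 350.59, and AY replicates 1, 2 and 3 scored 1193.46, 801.1 and 381.26. Within the lists the peak was number 71, 47 and 93 for WT, and number 30, 30 and 52 for AY, which is in the top 6.07% of every list.

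Among the 202 regions held by all libraries, Mafg took ranks 54, 36 and 56 for WT, against 20, 20 and 34 for AY. The groups did not overlap, as at 28.2% of the 202 regions in this direction, but WT replicate 2, at 36, was next to AY replicate 3, at 34. Its mean rank was 48.7 ± 11.0 for WT and 24.7 ± 8.08 for AY (SD, n = 3), a difference of -24 places (exact permutation p = 0.1, two-sided; 0.15 adjusted over 3 genes). This is under the median size of 40.2 places, and 69 of the 202 regions had a difference at least as much in favour of AY. The Mafg difference was -8.67 places with WT replicate 2 as the only WT library. That value comes from ranks among the 229 regions held by all libraries with Y peaks. As a share of the whole list the ranks overlapped, at 5.39% ± 0.859 for WT and 2.75% ± 1.79 for AY (SD, n = 3; two-sided exact permutation p = 0.2). The position of the Mafg peak overlapped between the genotypes. Its midpoint was 1539 ± 60.0 bp from the given start for WT and 1529 ± 32.9 bp for AY (SD, n = 3; two-sided exact permutation p = 0.9), a difference of -10 bp that turned to 20.6 bp without WT replicate 1 and to 7.17 bp without AY replicate 1. The peak measured 773 ± 37.8 bp for WT and 873 ± 136 bp for AY (SD, n = 3; two-sided exact permutation p = 0.3).

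The second region in the Mafg window was a peak of WT replicate 1 alone, at 120534734 to 120535123, with a score of 65.37 and rank 1250 of 1604. At 44.7 kb it was the farthest inside any window. The nearest region outside a window lay 73.0 kb before the given Bach1 start, in AY replicates 1 and 2 only, with scores of 63.2 (rank 1802) and 56.5 (rank 1242).

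At Bach1 the region lay away from the given start, by 13.9 kb to 14.9 kb towards higher coordinates (87712941 to 87713851 on chromosome 16). RefSeq has Bach1 on the plus strand of GRCm38.p6, where this direction leads into the gene. All 6 peaks shared 479 bp, 87713205 to 87713683, which is the whole peak of AY replicate 2. WT replicates 1, 2 and 3 scored 425.96, 224.45 and 115.08, and AY replicates 1, 2 and 3 scored 377.12, 104.32 and 148.57. Bach1 had the lowest score of the 3 shared regions in 5 of 6 libraries, the exception being WT replicate 1, where Sqstm1 was lowest. The ranks within the lists spread widely, at 132, 132 and 543 for WT, against 265, 707 and 281 for AY.

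The rank of Bach1 varied as much within a genotype as between them. Among the 202 regions it was 85 in WT replicates 1 and 2 and 168 in WT replicate 3, against 106, 170 and 104 for AY replicates 1, 2 and 3. WT replicate 3 and AY replicate 2 were the low libraries, and the groups overlapped. Its mean rank was 113 ± 47.9 for WT and 127 ± 37.5 for AY (SD, n = 3), a difference of 14 places (exact permutation p = 0.5, two-sided; 0.5 adjusted over 3 genes). Single libraries set this value. It was 54.8 places without WT replicate 3, 0.833 without WT replicate 1, 24.2 without WT replicate 2, 23.2 without AY replicate 1 and -9.67 without AY replicate 2. The value was 56.3 with WT replicate 2 as the only WT library. Each of these values comes from ranks among the regions held by all libraries kept, not among the 202. There were 205 to 246 such regions in the settings above with 1 library left out, and 229 with WT replicate 2 as the only WT library. The Bach1 midpoints lay within 69.5 bp of each other in all libraries. They did not overlap between genotypes, being 30.5 bp farther from the start in AY (14417 ± 18.0 bp for WT and 14447 ± 17.2 bp for AY; SD, n = 3; exact permutation p = 0.1; 0.3 adjusted over 6 comparisons). Of the 202 regions, 8.42% had midpoints separated in this direction along the chromosome, and 76 had a shift at least as large in either direction. The nearest were 14429.5 bp in WT replicate 2 and 14431.5 bp in AY replicate 1, and the difference was 20.2 bp without WT replicate 1. The peak measured 753 ± 138 bp for WT and 603 ± 179 bp for AY (SD, n = 3; two-sided exact permutation p = 0.3).

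**Figure D2:**
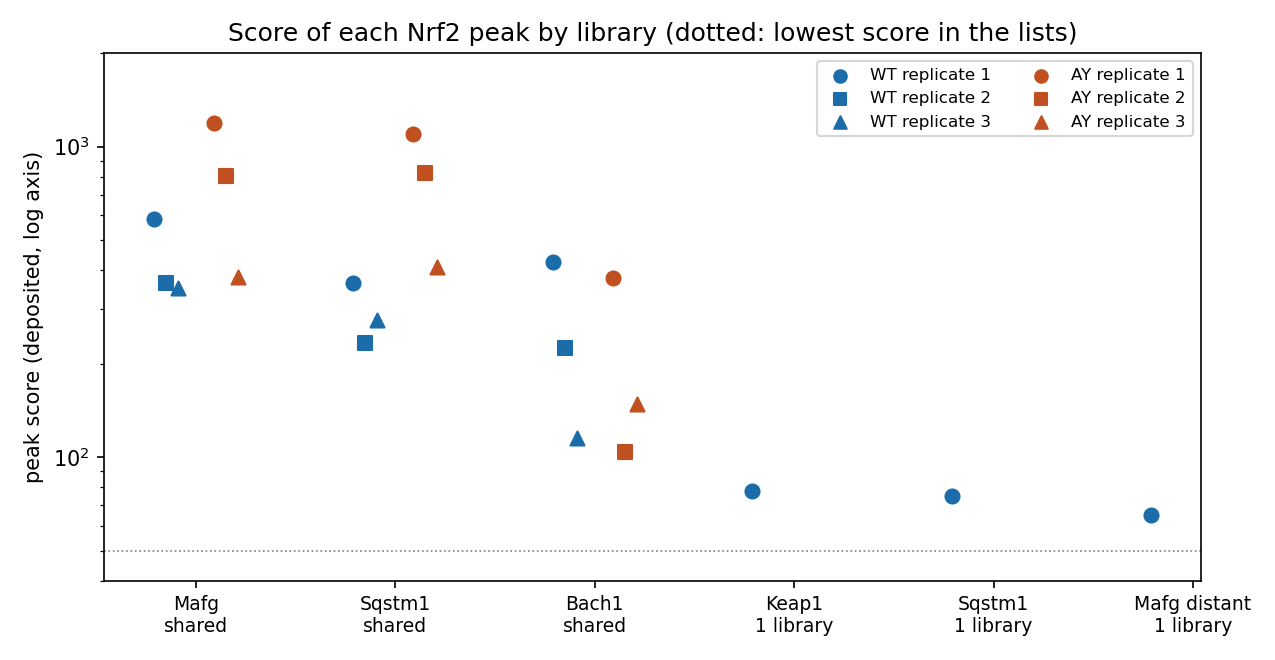
Deposited score of each peak in the windows on a log axis, by region and library (blue WT, orange AY; circles, squares and triangles are replicates 1, 2 and 3; the dotted line is the lowest score in the lists, 50). The peaks of Mafg, Sqstm1 and Bach1 score from 104.32 to 1193.46, and the 3 peaks of WT replicate 1 alone score 77.86, 75.11 and 65.37.

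**Figure D3:**
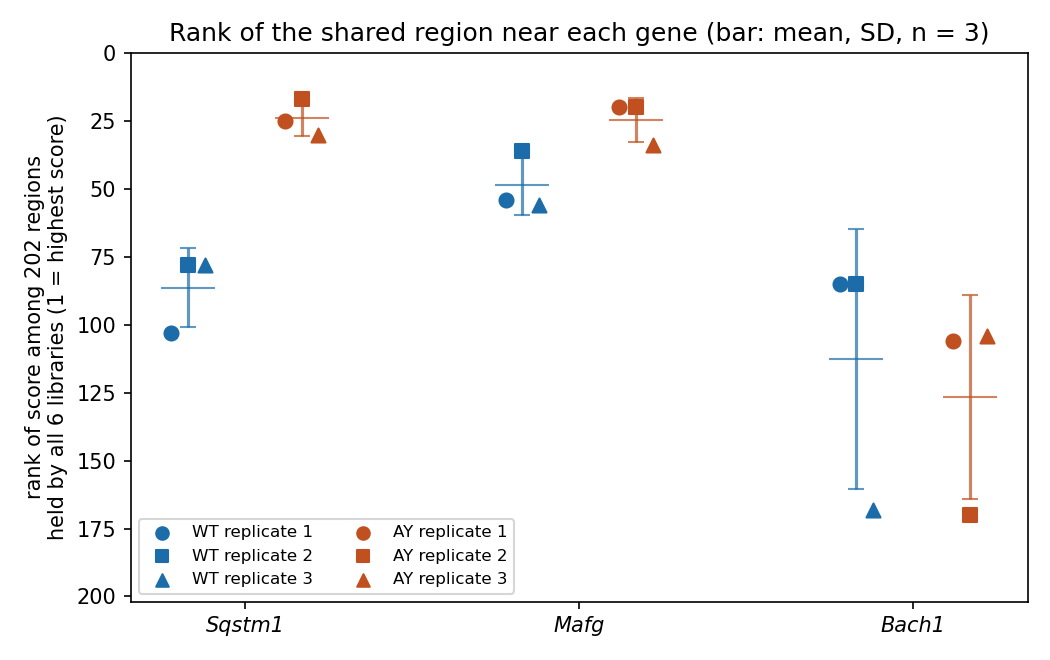
Rank of the score of the Sqstm1, Mafg and Bach1 regions among the 202 regions held by all 6 libraries (y axis, 1 at the top being the highest score), 1 point per library, with mean and SD (n = 3). AY libraries lie above WT libraries at Sqstm1 (17 to 30 against 78 to 103) and Mafg (20 to 34 against 36 to 56), and the genotypes overlap at Bach1.

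The order of the 3 genes within a library thus differed between libraries. Sqstm1 scored highest in AY replicates 2 and 3 and lowest in WT replicate 1, and held the middle place in the other 3. Mafg was highest or in the middle in every library.

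**Figure D4:**
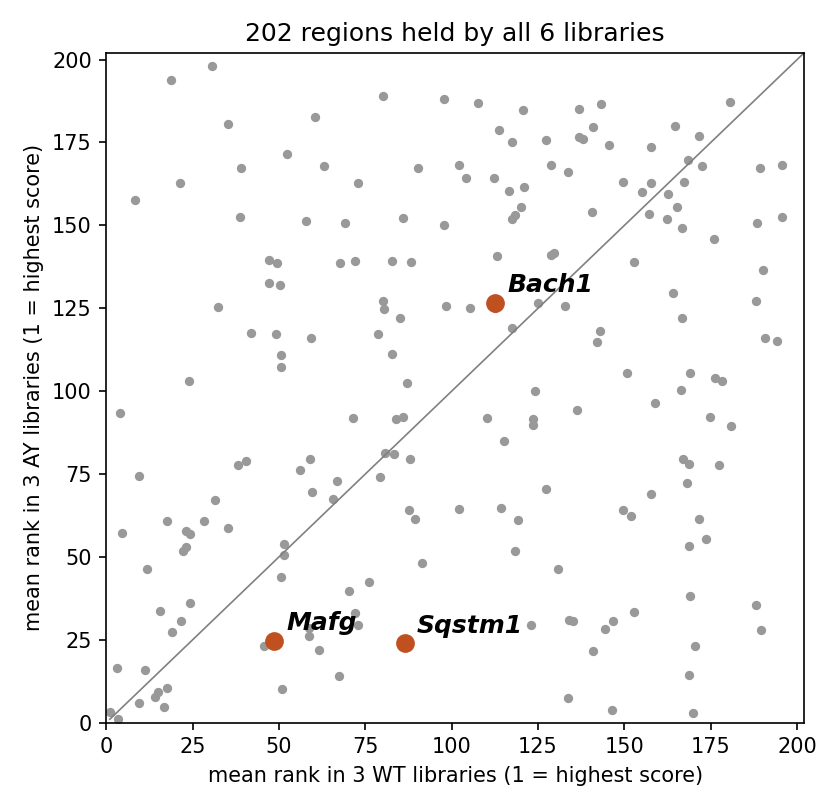
Mean rank in the 3 WT libraries (x axis) against that in the 3 AY libraries (y axis) for the 202 regions held by all 6 libraries, 1 being the highest score, with the line of equal ranks. Mafg (48.7 and 24.7) and Sqstm1 (86.3 and 24) lie on the AY side of the line and Bach1 (113 and 127) lies near it, within a broad scatter of the other regions.

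Near Keap1, the repressor of Nrf2, the only peak was that of WT replicate 1 at 21043088 to 21043637 on chromosome 9, 3.09 kb from the given start, which is also a round number, and 550 bp wide. Its score of 77.86 ranked 1110 of 1604, in the lower part of the list. In the other libraries the nearest peak was 238 kb (AY replicates 1 and 2), 289 kb (WT replicate 3), 2823 kb (AY replicate 3) and 5020 kb (WT replicate 2) away. A single low-ranking peak gives no comparison of the genotypes. WT replicate 1 had 440 regions of its own, 27.5% of those it held, against 14.3% to 32.0% in the other libraries.

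Nfe2l2, which encodes Nrf2 itself, was, counting all libraries together, the gene farthest from a peak. The nearest peak was 1637 kb away in WT replicate 1, 1836 kb in WT replicate 2 and 2680 kb in WT replicate 3. In AY replicates 1, 2 and 3 the distance was 2345, 1836 and 1982 kb. No library of either genotype therefore had a called peak nearer than 1637 kb to the start, although the promoter holds the TGACTCCGC match printed above. With unknown depth, occupancy below the caller's threshold was not detectable.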

How the data were processed

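Nrf2 ChIP-seq peak lists of 6 libraries (3 WT, 3 AY) were analysed, and values of the 6 input samples were not analysed here. MACS 1.4, Bowtie2 and bcl2fastq 2.15.0 are named in the submitters' processing notes, as is the build mm9. For their settings, and for any use of the inputs as controls, the entry is "not given in the sources used here". Each ChIP library has its own list, in which the authors deposited a score per peak of 50 or more, read as -10 log10 of the p-value and used only to rank peaks within a list. No read counts are given.

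Peaks sharing at least 1 bp were merged, and coordinates count from 1 (Python 3.11.15, numpy 2.4.6). Genotype means were compared by two-sided exact permutation over 20 assignments, with a smallest p of 0.1. Merging and ranking were tested on simulated lists, with larger score differences than those seen here. The exact tests were checked only on fixed numbers, for their smallest p. The members, gene lists and motifs were chosen with earlier results of these data known. All 5 genes and every region within 50 kb are described. Alternatives were a score of at least 100, equal list lengths (826 peaks), windows of 25 and 100 kb, a 50% overlap, merging up to 1 kb, each library left out, the replicate number as a block, ranks relative to the whole list and, added after seeing the data, only libraries with Y peaks and, for midpoints, each library left out.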

Additional observations from a re-analysis of the deposited data

How the results depend on the processing

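The 3 regions in all libraries, and the absence of regions held by every library of 1 genotype and none of the other, stood under all 13 alternatives. The difference in peak number, -1, was 0 with a score of at least 100, with equal list lengths and with only libraries that have Y peaks, and -1.5 to 0 with each library left out (0 without WT replicate 1, which held the 3 single peaks). The AY minus WT rank difference kept its direction in all 15 alternatives at Sqstm1 (-76 to -54 places with a library left out) and at Mafg (-31.7 to -17.7). At Bach1 it ran from -9.67, the reversal without AY replicate 2, to 54.8 with a library left out, and was 56.3 with only libraries that have Y peaks. None passed 0.05, which neither 3 against 3 nor fewer libraries allow. With the replicate number as a block, the difference in peak number was -1 (exact sign-flip p = 1, again fixed in advance because only 1 library differed). The rank differences were -62.3 (exact sign-flip p = 0.25), -24 (p = 0.25) and 14 places (p = 0.75) at Sqstm1, Mafg and Bach1. The least that 3 pairs allow is 0.25. The main tests did not treat the replicate numbers as pairs, and no label states a pairing. Deviations of same-numbered libraries correlated at 0.096, 0.086 and 0.195 over 1897 regions. Differently numbered pairs gave -0.161 to 0.064, so the same-numbered value was the highest for every library. This is a hint of pairing from the data that was not tested, so p-values of both forms are given. Unknown depth limits every absence of a peak.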
